A study of Arabidopsis thaliana with 3 samples.

Results

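AHP2 (AT1G13330), RAD51C (AT2G45280) and RAD54 (AT3G19210) are 3 genes of meiotic recombination in Arabidopsis thaliana, and each had a FHY3 peak near it in both replicates of the experiment. They were chosen from among 27444 protein-coding nuclear genes because of these peaks. All peaks that came within 3 kb of either end of a gene were taken, which gave 1 peak per gene and replicate, 6 peaks in all, of 1475 nuclear peaks in replicate 1 and 1354 in replicate 2. FHY3, a DNA-binding regulator that descends from a transposase and is best known for its part in responses to far-red light, was mapped by chromatin immunoprecipitation and sequencing (ChIP-seq) with an antibody to FLAG. The plants were fhy3-4 mutants with the transgene 35S:3FLAG-FHY3-3HA, in which the 35S promoter, active in most plant cells, makes a FHY3 protein with FLAG and HA tags, and no group with FHY3 at its native level is among the samples. They grew in a greenhouse with 16 h of light and 8 h of dark, and the inflorescences taken held flowers of stage 8 or younger. The series holds 2 ChIP samples, which the submitters call distinct biological replicates, and 1 input sample of DNA, whose values were not analysed here. The tissue was a whole inflorescence, so the lists do not show in which cells FHY3 was bound, or whether meiotic cells were among them.

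Meiotic recombination starts with programmed breaks in the DNA of each chromosome, whose ends are cut back and then invade the homologous chromosome. The invasion is carried out by filaments of recombinase proteins such as DMC1, and helper proteins load, stabilise or stimulate these filaments. AHP2 is the Arabidopsis form of HOP2, which acts with MND1 to help DMC1 pair homologous chromosomes. RAD51C works together with XRCC3 in the repair of breaks. RAD54 is a DNA-dependent ATPase of the SWI2/SNF2 family that assists strand exchange. RAD51C and RAD54 also serve in the repair of DNA outside meiosis.

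The joined peak at AHP2 was among the strongest of the whole series outside gene-poor regions. Its summed rank over both lists was at place 5 of the 603 joined peaks outside gene-poor bins, and at place 13 of all 882. The peaks at RAD51C and RAD54 were of middle rank, at places 311 and 371 of the 603. Joined over both replicates, all 3 lay where the member and its next gene nearly touch, across gaps of 85, 27 and 166 bp. At RAD51C and RAD54 most of each peak lay over the neighbouring gene, so a name taken from the gene under the midpoint would be that of the neighbour. Gene-poor bins are stretches of 500 kb with a density of protein-coding genes under 0.5 times the median of their chromosome, and none of the 3 genes lies in one. Positions of peaks are those of the lists, whose genome build none of the sources names, and every distance to a gene assumes that the lists share the frame of the TAIR10.1 gene table.

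**Figure D1:**
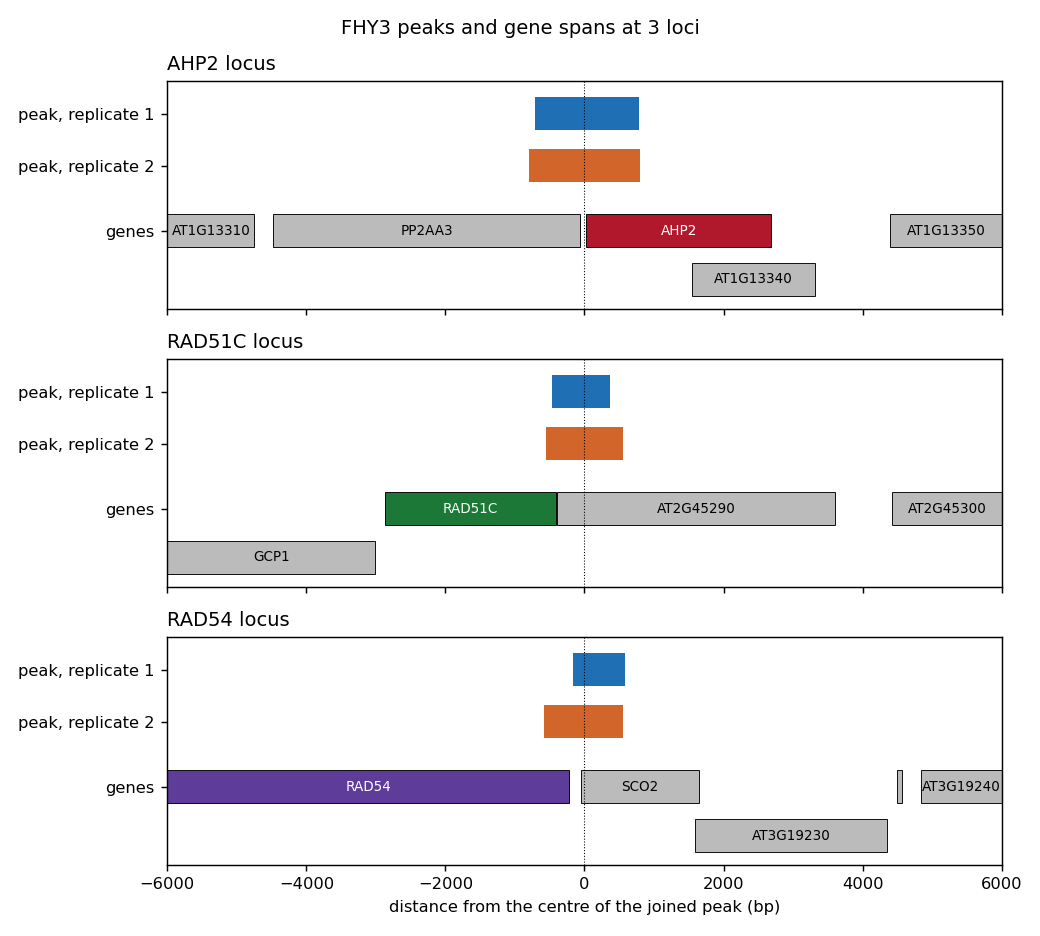
Peaks of replicate 1 (blue) and replicate 2 (orange) and the spans of annotated genes at the 3 loci, drawn to scale as distance in bp from the centre of the joined peak (dotted line). The member gene is coloured and its neighbours are grey; the AHP2 peaks cover the 85 bp gap to PP2AA3, while the centres at RAD51C and RAD54 lie over AT2G45290 and SCO2.

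At AHP2 the peak of replicate 1 ran on chromosome 1 from 4567197 to 4568692, a width of 1496 bp. The peak of replicate 2 ran from 4567115 to 4568702, a width of 1588 bp. The right edges were 10 bp apart and the left edges 82 bp, and the smaller peak lay wholly inside the larger. The authors' peak score was 1304 in replicate 1, rank 17, and 2220 in replicate 2, rank 13. The scale of that score is not stated, so it was read only as a rank within each list, and here both replicates placed the peak in the top 1.15% and 0.960% of nuclear peaks.

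The AHP2 peak was shared almost evenly with PP2AA3 (AT1G13320), which encodes a scaffold subunit of protein phosphatase 2A and is widely used as a reference gene for expression. In replicate 1, 758 bp of the peak (50.7%) lay over AHP2 and 653 bp (43.6%) over PP2AA3. In replicate 2 these were 768 bp (48.4%) and 735 bp (46.3%). The remaining 85 bp were the whole gap between both genes. The midpoint fell 9.5 bp inside AHP2 in replicate 1, and in the gap, 26.5 bp short of AHP2 and 59.5 bp from PP2AA3, in replicate 2. The peaks alone therefore do not assign the site to AHP2 or to PP2AA3. The peak ended 755 bp in replicate 1 and 745 bp in replicate 2 before AT1G13340, a gene whose span overlaps the far end of AHP2; it touched no gene beyond this pair. The gene table used here gives no strand, so it cannot be said whether the gap holds the start of one, both or neither gene.

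At RAD51C the peak of replicate 1 ran on chromosome 2 from 18672418 to 18673259, a width of 842 bp. In replicate 2 it ran from 18672334 to 18673437, a width of 1104 bp, and held the whole of the replicate 1 peak. The score was 83.1 in replicate 1, rank 444, and 245 in replicate 2, rank 294. This placed it in the top 30.1% and 21.7% of nuclear peaks, far from the rank of AHP2 in both lists. Among peaks that overlap a peak of the other list it was in the top 47.2% and 32.3%.

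Only the edge of the RAD51C peak touched RAD51C itself, by 52 bp (6.18% of the peak) in replicate 1 and 136 bp (12.3%) in replicate 2. The next gene, AT2G45290, listed as transketolase 2 (TKL2), an enzyme type of the pentose phosphate pathway, held 763 bp (90.6%) and 941 bp (85.2%). Its midpoints were 341.5 and 388.5 bp inside AT2G45290, and 369.5 and 416.5 bp from the near end of RAD51C. On the far side of RAD51C, GCP1 (AT2G45270), listed as glycoprotease 1, was 2544 and 2460 bp from the peak. The peak is thus near RAD51C by distance and over TKL2 by position in both replicates.

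At RAD54 the peak of replicate 1 ran on chromosome 3 from 6659043 to 6659784, a width of 742 bp. The peak of replicate 2 ran from 6658632 to 6659759, a width of 1128 bp. Right edges differed by 25 bp and left edges by 411 bp, so the peak of replicate 2 reached farther on the side of RAD54. The score was 62.2 in replicate 1, rank 555, and 191 in replicate 2, rank 348, in the top 37.6% and 25.7% of nuclear peaks. Among overlapping peaks alone it was in the top 57.6% and 38.3%, below the middle in replicate 1.

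Whether the peak met the span of RAD54 differed between the replicates. In replicate 1 the peak stopped 54 bp short of RAD54, with 0 bp over it, and in replicate 2 it covered 357 bp of RAD54 (31.6% of the peak). SCO2 (AT3G19220, also called CYO1), which is needed for chloroplast development in cotyledons, held 630 bp (84.9%) and 605 bp (53.6%). The midpoint lay inside SCO2 in both, by 258.5 bp in replicate 1 and 40.5 bp in replicate 2. Counting a gene only where its own span is touched by overlapping peaks of both replicates, 2 of the 3 members remained, AHP2 and RAD51C, and this holds for 1.91% of all protein-coding genes. AT3G19230, beyond SCO2, was 1015 and 1040 bp away from the peaks.

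By the share of the replicate 2 peak and by midpoints, the agreement of both replicates followed the order of rank. The overlap made up 94.2% of the replicate 2 peak at AHP2, 76.3% at RAD51C and 63.6% at RAD54. The median was 84.1% over the 626 overlapping pairs outside gene-poor bins. Of the replicate 1 peak it made up 100% at AHP2 and RAD51C and 96.6% at RAD54, against a median of 99.6%. The replicate 2 share thus also reflects the wider peaks of that replicate. Midpoints differed by 36 bp at AHP2 and 47 bp at RAD51C, below the median of 71.25 bp in those pairs, and by 218 bp at RAD54, above the upper quartile of 122.25 bp. Mean widths were 1542 ± 65.1 bp (SD, n = 2) at AHP2, 973 ± 185 bp at RAD51C and 935 ± 273 bp at RAD54. The AHP2 peak was wider than the other pair by more than this spread, while widths at RAD51C and RAD54 did not differ beyond it. This spread includes the shift to wider peaks in replicate 2. Within the lists, RAD51C was wider than RAD54 in replicate 1 (842 against 742 bp) and narrower in replicate 2 (1104 against 1128 bp). With 1 value per replicate no test was made of these differences, and the loci were picked with their values known.

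All 3 peaks were wider in replicate 2, by 1.06 times at AHP2, 1.31 times at RAD51C and 1.52 times at RAD54. The same held for 76.8% of the pairs outside gene-poor bins, whose median ratio was 1.14, so the direction was that of most peaks. Each member also stood higher in the replicate 2 list, which was so for 51.6% of these pairs. The mean rank was in the top 1.06 ± 0.136% (SD, n = 2) at AHP2, 25.9 ± 5.93% at RAD51C and 31.7 ± 8.43% at RAD54. AHP2 stood apart from the rest by more than the spread between replicates. The means of RAD51C and RAD54 differed by less than that spread, which includes the shift between the lists. Within each list RAD51C ranked ahead of RAD54, at 444 against 555 in replicate 1 and 294 against 348 in replicate 2. The lists give no reads, so depth is unknown and no single score carries a counting error.

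**Figure D2:**
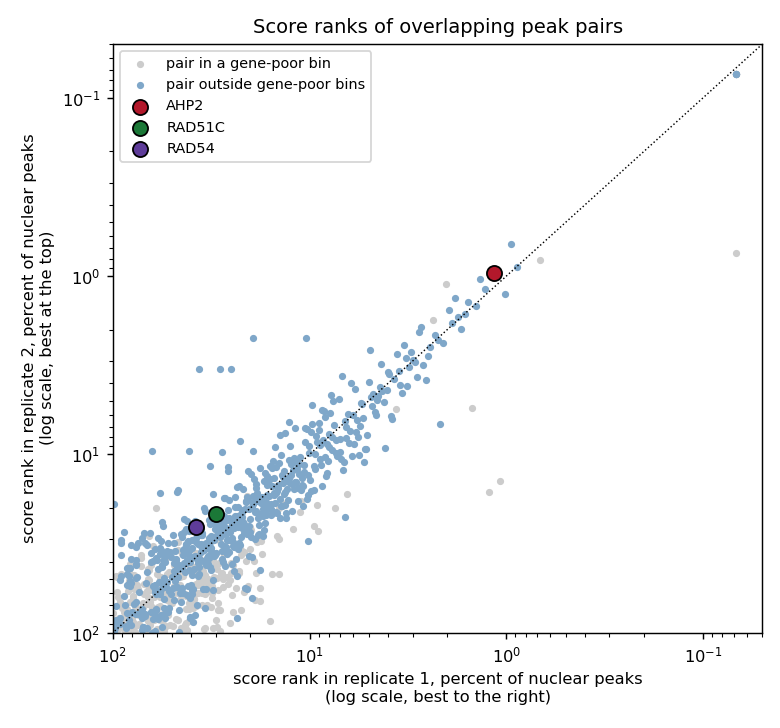
Score rank in replicate 1 (x axis) and replicate 2 (y axis) of the 944 overlapping peak pairs, as percent of nuclear peaks on log axes with the best ranks at the upper right. Grey points are pairs in gene-poor bins, blue points the 626 others, and large points the 3 members; AHP2 sits at 1.15% and 0.960%, and RAD51C and RAD54 lie close together in the crowded lower part, above the dotted line of equal rank.

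Each member peak had a width within the range of the peaks nearest to it in rank. At AHP2 the peaks within 25 ranks on either side had a median width of 1410 bp in replicate 1 and 1544 bp in replicate 2, against 1496 and 1588 bp. With ranks 17 and 13, AHP2 had fewer than 25 peaks above it, so these sets held 41 and 37 peaks. Their widths reached 13791 and 16791 bp, so lying within that range says little at AHP2. For RAD51C the median widths of such peaks were 971.5 and 1077.5 bp, against its 842 and 1104 bp. For RAD54 they were 920 and 1044 bp, against 742 and 1128 bp. The medians of the whole lists were 906 and 953 bp, so RAD51C and RAD54 were narrower than the list median in replicate 1 and wider in replicate 2. None of the 3 resembled the peaks at the top of the lists that extend over several kb.

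**Figure D3:**
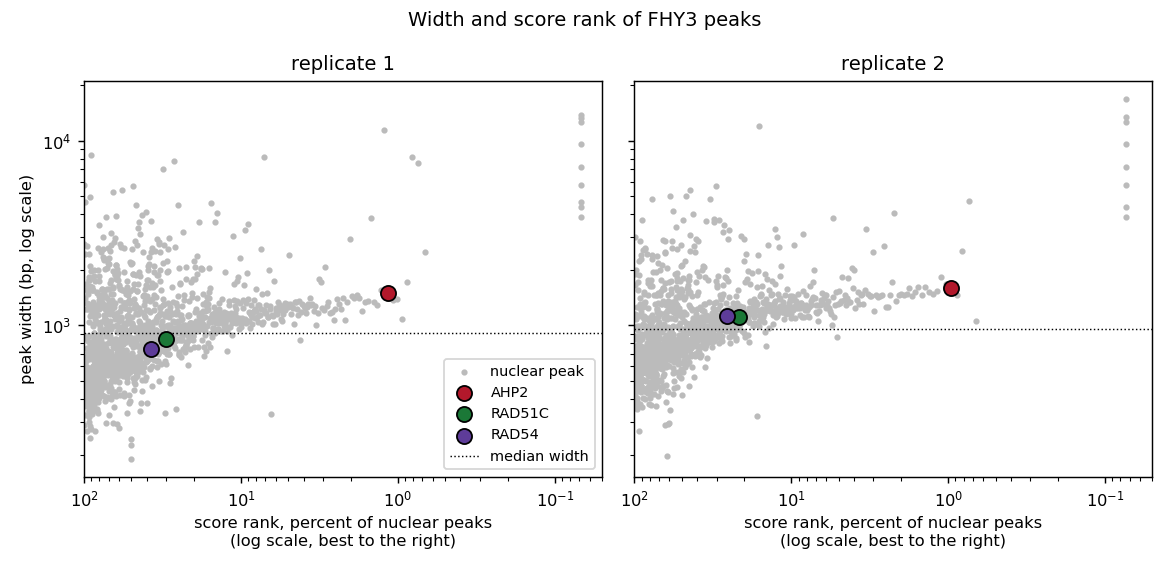
Peak width in bp (log scale) against score rank as percent of nuclear peaks (log scale, best to the right) in each replicate. Grey points are all nuclear peaks, large points the 3 members and the dotted line the median width (906 and 953 bp); AHP2 lies at the right within the narrow band of high-ranked peaks, at 1496 and 1588 bp.

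The distance to the next peak was in the usual range at all 3 loci. Outside gene-poor bins, the median distance from a peak to the nearest other peak of its list was 27506 bp in replicate 1 and 26812 bp in replicate 2, with lower quartiles of 7967 and 7400.5 bp. The nearest other peak was 11052 bp from the AHP2 peak in replicate 1 and 10858 bp in replicate 2. At RAD51C it was 20803 and 20496 bp away, and at RAD54 25056 and 24927 bp. Measured from the gene spans, the next peaks were at 11790 and 11678 bp for AHP2, 18394 and 18171 bp for RAD51C, and 25852 and 25698 bp for RAD54. No other peak thus came within 11678 bp of a member gene, so the choice of 3 kb as limit bore little on which peaks were taken.

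Peaks that touch a pair of genes were a minority of the series. Of the 603 joined peaks outside gene-poor bins, 139 touched no protein-coding gene, 378 touched 1 and 86 (14.3%) touched at least 2. Joined over both replicates, all 3 member peaks belong to the last kind: AHP2 with PP2AA3, RAD51C with AT2G45290, and RAD54, through replicate 2, with SCO2. The gaps they span were short. Over 23810 gaps between neighbouring protein-coding genes that do not overlap, the median was 877 bp. Of these gaps, 10.2% were no longer than the 85 bp at AHP2 and 3.96% no longer than the 27 bp at RAD51C. For the 166 bp at RAD54 the share was 17.7%. The members were picked for having a peak within 3 kb, so this is a description of 3 chosen sites.

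By rank, the joined peaks outside gene-poor bins nearest to AHP2, with a summed rank of 30, were at AT5G04500 (ranks 15 and 17 in replicates 1 and 2), at a site on chromosome 5 from 18900380 to 18902046 with no gene within 1000 bp of its midpoint (20 and 14), and at AT1G72250 (13 and 12). Another peak was as near as the last of them and was passed over by chromosome order. Those nearest to RAD51C, at 738, were beside AT4G37530 (400 and 341), in WRKY46, a transcription factor gene (375 and 367), and in AT3G09440 (603 and 130). Those nearest to RAD54, at 903, were in PRAF1 (518 and 385), in LOG8 (685 and 214), of a family of cytokinin-activating enzymes, and in IPT2 (539 and 370), which encodes a tRNA isopentenyltransferase. A tie for the last place occurred here too. Likeness is only that of summed score rank over 2 samples, and a like sum can hide unlike ranks, as 603 and 130 at AT3G09440 show.

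The last question was whether other genes of meiotic recombination had FHY3 peaks. Few did. A list of 41 genes, in 7 groups by role, was drawn up with results of these data already known. Within 3 kb, 5 of the 41 had overlapping peaks of both replicates, against 5.33% of all protein-coding genes, but 3 of these 5 are the members, which were chosen for it. Of the other 38 genes, 2 (5.26%) had such peaks, a share near that of all genes. In each replicate taken alone the count was also 2 of 38, against 7.24% of all genes in replicate 1 and 7.60% in replicate 2. These counts differed from the background share by less than 1 gene. They leave out 5 listed loci with no symbol, dropped after their values were seen. Of those loci, 1 had a peak within 3 kb in replicate 1 and 0 in replicate 2. Of the 41 genes, 1 lies in a gene-poor bin, and outside such bins 5.29% of all genes had peaks of both replicates.

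Among 6 genes of strand exchange, only AHP2 and RAD54 had a peak within 3 kb. Overlapping peaks of both replicates lay that near to 5.33% of all protein-coding genes. MND1, the partner of AHP2 in the HOP2-MND1 complex, had its nearest peak 115189 bp away in replicate 1 and 115215 bp in replicate 2. DMC1, the meiotic recombinase that the complex stimulates, was 216846 and 44186 bp from a peak. For BRCA2A and BRCA2B, whose products load the recombinases, the distances were 48310 and 40116 bp, and 10394 and 10532 bp. Having no peak within 3 kb is what most genes of the genome show, and AHP2 and RAD54 were chosen for having one, so the contrast with these partners is a description.

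Among 5 genes of related helper proteins, RAD51C, RAD51B, RAD51D, XRCC2 and XRCC3, RAD51C and XRCC2 had peaks of both replicates within 3 kb. RAD51C was chosen for its peak, so XRCC2 is the only other gene of this group with one. That is too few genes to set against the 5.33% of all protein-coding genes. The XRCC2 peak had a score of 24.9 in replicate 1, rank 1348, in the top 91.4%, and of 59.1 in replicate 2, rank 652, in the top 48.2%. It was thus among the lowest of replicate 1 and near the middle of replicate 2. It lay on chromosome 5 from 25785130 to 25785836 in replicate 2, inside TIN1 (AT5G64510), and 2155 and 2132 bp from XRCC2. RAD51B, RAD51D and XRCC3, the last being the partner of RAD51C, had none within 3 kb, and the nearest to XRCC3 was 225414 and 149404 bp away.

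Among the 6 genes of the chromosome axis, cohesion and synapsis, SWI1 (AT5G51330, also called DYAD), which is needed for sister chromatid cohesion in meiosis, was the 1 gene with peaks of both replicates within 3 kb. Over all protein-coding genes the share with such peaks was 5.33%, and 1 gene of 6 is too few to set against it. The SWI1 peak ranked 663 with a score of 48.3 in replicate 1 and 381 with a score of 165 in replicate 2. The peaks lay over the neighbour AT5G51340, at 1199 and 626 bp from SWI1. In replicate 2 it ran on chromosome 5 from 20862338 to 20863724. Like XRCC2, SWI1 was near a peak whose midpoint lay inside another gene.

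Of 6 genes of break formation, 4 of end processing, 9 of crossover formation and 5 that limit crossovers, 24 in all, 0 had a peak within 3 kb in either list. With 7.24% and 7.60% of all genes near a peak of replicates 1 and 2, a count of 0 among 24 genes is not far from the background. SPO11-1, which encodes a subunit of the enzyme that makes the breaks, was 68694 and 68224 bp from the nearest peak. Just outside the limit was RECQ4A, a helicase gene that limits crossovers, with peaks at 3481 and 3328 bp, over TMN1. Over the 38 genes other than the members the median distance to the nearest peak was 53777 bp in replicate 1 and 50026.5 bp in replicate 2, against 47179.5 and 43462 bp over all protein-coding genes. Median gene length was 4493.5 bp among these 38 and 2078 bp in all, and a longer gene has a larger window in which a peak counts.

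**Figure D4:**
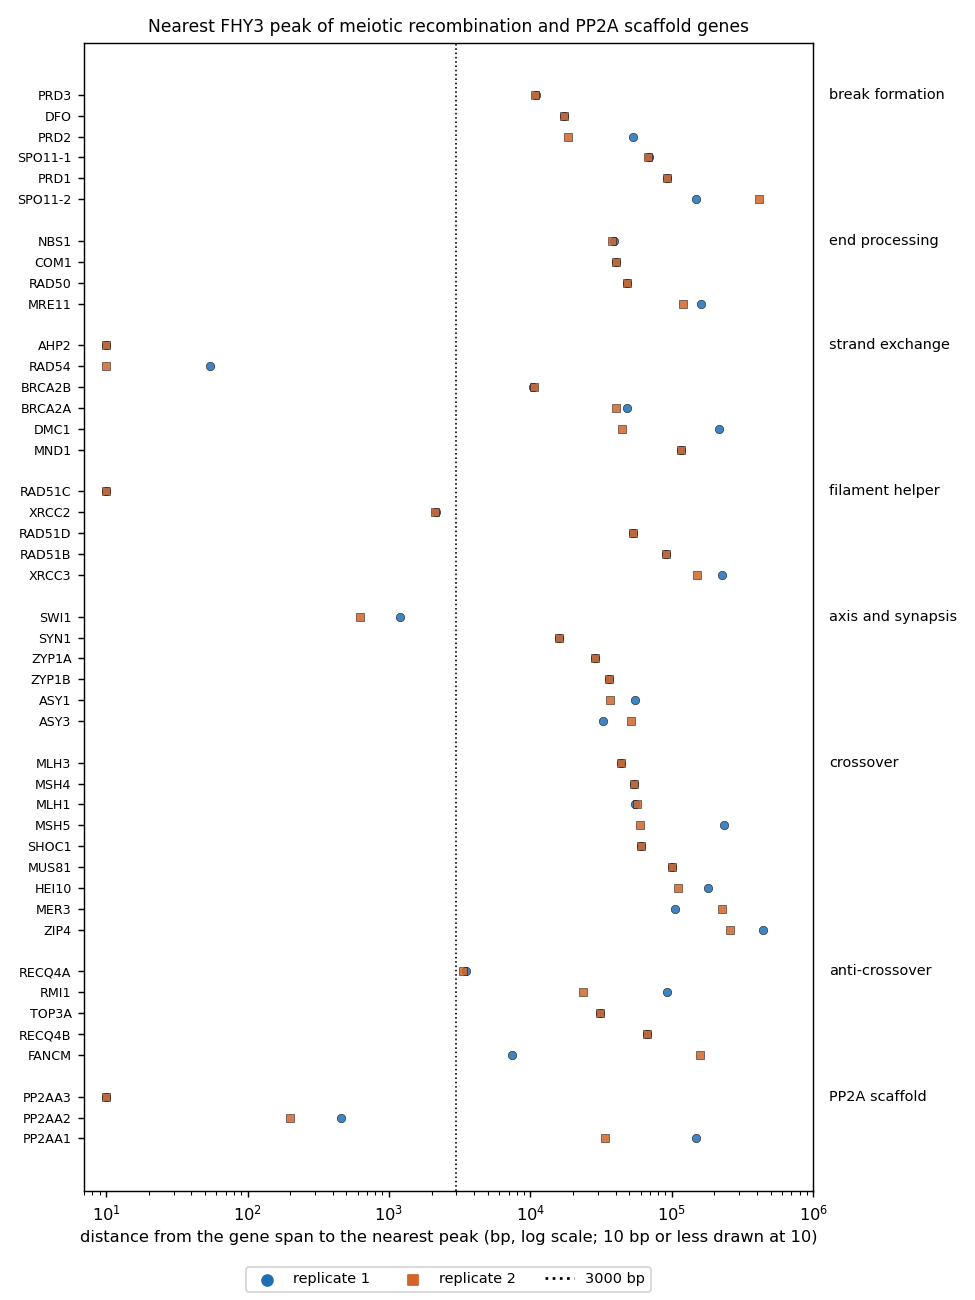
Distance in bp from the span of each gene to the nearest peak of replicate 1 (blue circles) and replicate 2 (orange squares) on a log axis, for 41 meiotic recombination genes by role and 3 PP2A scaffold genes; distances up to 10 bp are drawn at 10. Only AHP2, RAD54, RAD51C, XRCC2, SWI1 and the PP2A genes PP2AA3 and PP2AA2 lie left of the dotted line at 3000 bp, each in both replicates.

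Because AHP2 shares its peak with PP2AA3, the other scaffold genes of protein phosphatase 2A were read as well. PP2AA2 (AT3G25800) had a peak of its own in both replicates, on chromosome 3 from 9421052 to 9422014 in replicate 1 and from 9421022 to 9422275 in replicate 2. Its score was 195 in replicate 1, rank 224, and 450.4 in replicate 2, rank 184. It touched no protein-coding gene, and PP2AA2 was the nearest to its midpoint, with 461 and 200 bp between the gene and the edge of the peak. PP2AA1, listed as RCN1 (AT1G25490), had none within 3 kb, and its nearest peaks were 149082 and 33617 bp away. Of the 3 scaffold genes, PP2AA3 is near a peak through the choice of the AHP2 locus, so PP2AA2 is the only one of the other 2 with peaks of both replicates, too few genes to set against the 5.33% of all genes.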

How the data were processed

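The submitters' processing notes name MACS 1.4.2, Bowtie2 2.2.3 and CASAVA 1.8, without settings, control or genome build. The deposited lists, 1 per ChIP sample, hold a start, an end and the authors' score for each peak, with no reads. A deeper library can give more, wider and higher-scored peaks. Replicate 2 had the larger median width (953 against 906 bp) and median score (55.4 against 42.84) but fewer nuclear peaks (1354 against 1475). Depth is unknown, so its part in these differences was not tested. Starts were converted to positions counted from 1, and ranks were taken among nuclear peaks. A peak of one list and a peak of the other were joined where they shared 1 bp or more. Gene spans came from a table of TAIR10.1 without strand, and all 49 listed loci were found in it. Of these, 5 loci with no symbol there were left out after their values were seen; 1 of them had a peak within 3 kb in replicate 1 and 0 in replicate 2. Another gene of the planned list is not reported here. Distances count the bases between a peak and a gene. No replicate numbers pair samples, and no statistical test was run. Shares of all protein-coding genes stand as background. The counting was tested on simulated peaks.

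The members, lists and alternatives were chosen with earlier results of these data known. Named are the members, genes within 3 kb of their peaks, listed genes with a peak within 3 kb, the PP2A scaffold genes, and genes at the 3 joined peaks nearest in summed rank to each member. RECQ4A, named as just outside the limit, and single listed genes without a peak were chosen after their values were seen. The planned search for the FHY3 binding site and the comparison of protein sequences were not run, as no sequence was used here. Python 3.11.15, pandas 2.3.3, numpy 2.4.6, networkx 3.6.1 and matplotlib 3.10.9 were used.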

Additional observations from a re-analysis of the deposited data

How the results depend on the processing

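Peaks of both replicates remained near all 3 members with a limit of 1 or 5 kb, 50% reciprocal overlap, or midpoints for intervals. All 3 also remained when a peak of either replicate counted. The members were chosen for peaks of both replicates within 3 kb. A limit of 5 kb, either replicate or 1 replicate alone therefore could not have lost a member. When a peak had to touch the gene itself, 2 of 3 remained, AHP2 and RAD51C. When both scores had to reach 100, 1 member was left, AHP2, with 810 of the 27444 protein-coding genes. It was also the 1 of 41 meiotic genes left. The meiotic genes numbered 2 of 41 when peaks had to touch the gene and 3 of 41 within 1 kb. For all 27444 genes these counts were 524 (1.91%) and 857. At both settings the meiotic genes left were all members, chosen for their peaks, and none of the other 38 remained. A peak in either list was near 2578 of all genes. Without replicate 1 or without replicate 2 the members numbered 3 each time, the meiotic genes 5 each time and all genes 1988 to 2087. Rank as a percent moved by more than the spread between replicates in all 6 cases each when gene-poor or unshared peaks were left out, and in 2 of 6, both at AHP2, when score was divided by width; AHP2 stayed in the top 0.222 to 1.63%. Among overlapping peaks RAD51C moved from the top 30.1% to 47.2% in replicate 1 and from 21.7% to 32.3% in replicate 2, and RAD54 from 37.6% to 57.6% and from 25.7% to 38.3%. The cause was not tested. The search for binding sites in promoters and its alternatives are left out here. No paired analysis was possible because only 1 group has peak lists. As depth is not known, a gene without a peak may still be bound.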
